A study of Mus musculus with 24 samples.

Results

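Gpcpd1 and Chka lead a group of 10 mouse genes that make, remodel and break down choline and ethanolamine phospholipids. The genes were listed by symbol, and each was measured by the Affymetrix probe sets whose RefSeq accession maps to that symbol. A probe set was found for 9 of the 10 genes, with 10 probe sets in all, out of 14351 genes with a symbol and 26180 probe sets on the array. Etnk1, an ethanolamine kinase, had no matched probe set and is not analysed here. Gpcpd1, Chka and Enpp2 were selected on their ratios to sham liver in these same arrays, so their values and any call on them are given as a description, with no p-value and nothing read from them as a test. The other 6 measured genes, Chkb, Pcyt1a, Pcyt2, Pemt, Chpt1 and Cept1, were tested among all 14351 genes. The whole list was drawn up with earlier results of these data known, so a call among the 6 is not independent support for it.

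The study asked how liver RNA differs during ischemia of increasing length in mice of different ages. RNA came from the median and left liver lobes of young mice, aged 4 to 5 weeks, and adult mice, aged 12 to 14 months. At each age, 3 mice had a sham operation and 3 each had partial hepatic ischemia, a stop of blood flow to some of the lobes, for 30, 60 or 90 min. Each of the 24 arrays carried RNA of 1 such liver, so n = 3 in every group. The labels name no genetic change and no drug, and strain and sex are not given in the sources used here.

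Every value is a linear ratio, with the arithmetic mean of the 3 age-matched sham arrays as its base. A ratio of 1 is therefore the sham mean of that age, and a log2 value below 0 lies below it. Because array brightness is not kept, young and adult sham livers cannot be set against each other, genes cannot be ranked by level, and hepatocyte identity could not be checked from marker levels. In whole liver, fewer cells of a type and less RNA per cell cannot be told apart. A gene passed the test at an adjusted p under 0.05 from limma, a linear model fitted across all genes. A gene is said to have fallen or risen only where it passed and was lower or higher. By comparison, the 3 arrays of an ischemia group did not overlap with sham for 11.5% to 39.1% of all genes. A lack of overlap was thus common. An error written after ± is the standard error of a log2 fold change unless SD is stated.

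Phosphatidylcholine, the main phospholipid of liver membranes, bile and secreted lipoproteins, is made in the liver by the CDP-choline route and by methylation of phosphatidylethanolamine. In the CDP-choline route, a choline kinase phosphorylates choline, a cytidylyl-transferase activates the phosphocholine, and a final transferase joins it to diacylglycerol; ethanolamine follows a parallel set of steps. Pemt carries out the methylation route, which is most active in hepatocytes. Breakdown by phospholipases leaves glycerophosphocholine, which Gpcpd1 cleaves to glycerol 3-phosphate and choline. Enpp2 encodes autotaxin, a secreted enzyme that releases choline from lysophosphatidylcholine and so makes the signalling lipid lysophosphatidic acid.

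Chka and Chkb encode the choline kinases that catalyse the same first step, and their upstream sequences are shown because their ratios are set side by side below. Each is the 250 bases before the annotated start site in RefSeq on build GRCm38.p6, written 5′ to 3′ on the gene's strand. The Chka stretch lies at chr19:3851523-3851772 on the plus strand, and the Chkb stretch at chr15:89429928-89430177 on the minus strand. Capitals mark the letters of a CCAAT box (CCAAT) or a GC box (GGGCGG), read on either strand.
Chka: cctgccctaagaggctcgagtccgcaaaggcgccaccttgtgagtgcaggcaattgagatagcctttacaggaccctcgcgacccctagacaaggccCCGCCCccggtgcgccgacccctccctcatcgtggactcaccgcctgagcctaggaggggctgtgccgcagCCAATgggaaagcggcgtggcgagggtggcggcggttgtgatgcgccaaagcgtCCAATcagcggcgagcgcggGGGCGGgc
Chkb: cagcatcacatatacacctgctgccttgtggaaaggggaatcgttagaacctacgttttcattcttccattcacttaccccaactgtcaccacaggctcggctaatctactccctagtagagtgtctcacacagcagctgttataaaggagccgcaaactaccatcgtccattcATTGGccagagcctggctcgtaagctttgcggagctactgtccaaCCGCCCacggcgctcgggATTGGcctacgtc
The Chka stretch held 2 CCAAT boxes and 2 GC boxes, and the Chkb stretch held 2 CCAAT boxes and 1 GC box. Among 32851 promoters of this length, 33.8% held a CCAAT box and 32.7% a GC box, so both motifs are common. An E-box (CACGTG), the core of the hypoxia response element (ACGTG, which every E-box of this form contains) and a D-box (TTATGTAA) were also searched on both strands. None of the 3 was found in either stretch, against 6.02%, 16.6% and 0.819% of all promoters. These are letter matches only, and no binding was measured.

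Gpcpd1, the glycerophosphocholine phosphodiesterase, had the largest fold changes of the measured genes in young liver. In young sham livers its ratios were 0.95, 0.991 and 1.06. They were 0.177, 0.382 and 0.238 after 30 min, 0.273, 0.536 and 0.473 after 60 min, and 0.262, 0.45 and 0.393 after 90 min. All 9 young ischemia arrays lay below all 3 young sham arrays. The group means were 0.266 ± 0.105 (SD, n = 3) at 30 min, 0.427 ± 0.137 at 60 min and 0.368 ± 0.096 at 90 min, so the order from highest was sham, 60, 90 and 30 min. The 3 ischemia groups overlapped one another, and only the step from sham to ischemia was larger than the spread between arrays. On the log2 scale the differences from sham were -1.99, -1.28 and -1.48, each ± 0.27.

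In adult liver the Gpcpd1 differences from sham were smaller in size. Adult sham ratios were 0.895, 0.83 and 1.28. Ratios were 0.584, 0.65 and 0.631 after 30 min, 1.02, 0.926 and 0.649 after 60 min, and 0.599, 0.464 and 0.756 after 90 min. The 30 and 90 min arrays all lay below the adult sham arrays, whereas the 60 min arrays overlapped them. The log2 differences were -0.66, -0.21 and -0.72, each ± 0.27. The adult order from highest was sham, 60, 30 and 90 min, and the 30 and 90 min groups overlapped. The small 60 min value turned sign, to 0.02, under quantile normalization.

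Gpcpd1 is the only one of the 9 genes with a second probe set. That probe set gave log2 differences of -2.05, -1.15 and -1.60 in young liver and -0.70, -0.05 and -0.74 in adult liver, in the order 30, 60 and 90 min. On no array did the 2 probe sets differ by more than 0.22 on the log2 scale.

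Each sample title carries a code of 2 parts whose meaning the labels do not give, and its first part is shared by some sham and ischemia arrays. Within arrays sharing it, the young Gpcpd1 differences were -1.81 at 30 min, -0.83 and -1.07 at 60 min, and -1.08 and -1.33 at 90 min. The young direction was thus the same in each code that allowed a comparison. The lowest Gpcpd1 array of each young ischemia group, at 0.177, 0.273 and 0.262, had a first code with no sham array. Those arrays are therefore outside these differences. With the first code as a block the young differences were -1.76, -1.01 and -1.20. In adult liver at 60 min the 3 such differences were 0.19, 0.16 and -0.98 and did not share a direction. The second part of that code nearly coincides with the groups, so the 2 cannot be told apart.

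**Figure D1:**
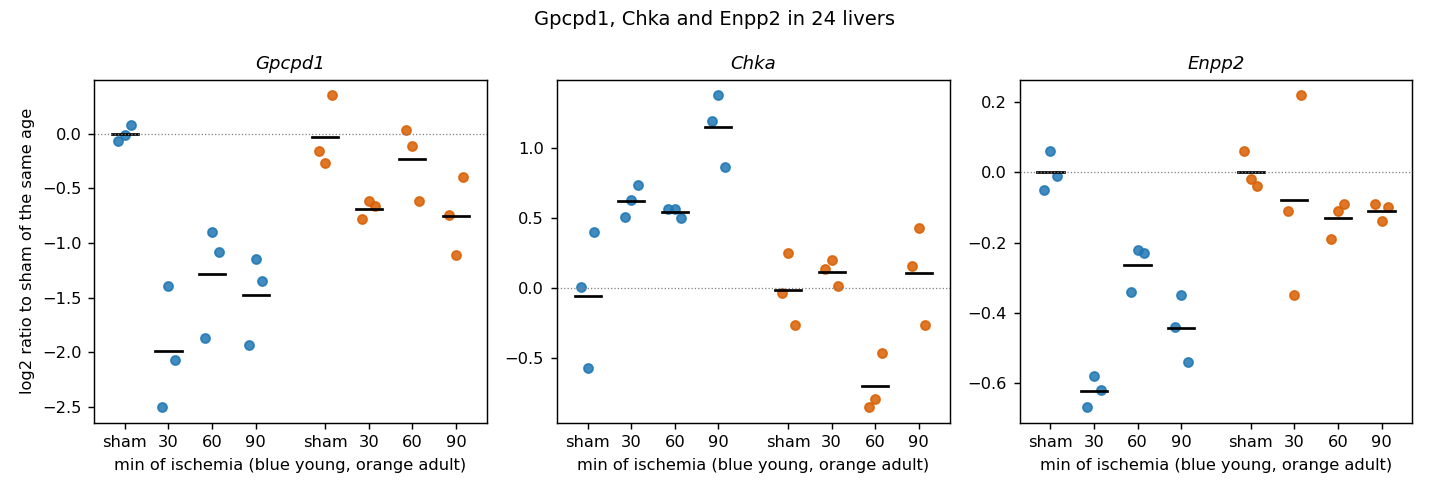
Log2 ratio to the sham mean of the same age for Gpcpd1, Chka and Enpp2, by minutes of ischemia, with each point 1 array (n = 3 a group), bars at the mean and a dotted line at the sham mean. The 9 young ischemia arrays of Gpcpd1 lie between -2.50 and -0.90, below all young sham arrays. Chka reaches 1.38 in young liver at 90 min and -0.85 in adult liver at 60 min.

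Chka, the choline kinase alpha gene, lay above sham in young liver and below it in adult liver at 60 min. Young sham ratios spread widely, at 1, 0.674 and 1.32. They were 1.42, 1.54 and 1.68 after 30 min, 1.49, 1.48 and 1.42 after 60 min, and 2.29, 2.6 and 1.83 after 90 min. All 9 young ischemia arrays lay above the highest young sham array, which is also the only sham array whose second title code differs from that of the other sham arrays. The 30 and 60 min groups overlapped, and all 3 arrays at 90 min lay above both. The log2 differences from young sham were 0.68, 0.60 and 1.20, each ± 0.20. Without young sham array 2, the lowest, the first 2 were 0.42 and 0.34. Within arrays sharing the first title code they were 0.28 at 30 min, 0.56 and 1.07 at 60 min, and 1.37 and 1.44 at 90 min.

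In adult liver Chka did not follow that order. Adult sham ratios were 0.976, 1.19 and 0.837. Ratios were 1.1, 1.15 and 1.01 after 30 min, 0.553, 0.578 and 0.728 after 60 min, and 1.12, 1.35 and 0.838 after 90 min. The 60 min arrays lay below every other adult array, while the 30 and 90 min arrays overlapped sham. The log2 differences were 0.13, -0.69 and 0.13, each ± 0.20. Within arrays sharing the first part of the title code, the 60 min difference was -0.82, -1.04 and -0.20, all below 0. The small 90 min value turned sign, to -0.03, in 1 of 13 alternatives.

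Chkb, which encodes the other choline kinase, lay close to sham throughout. Its ratios ran from 0.726 to 1.16 over the 18 ischemia arrays and from 0.861 to 1.12 over the 6 sham arrays. The log2 differences from sham were -0.27, -0.18 and 0.04 in young liver and -0.17, -0.16 and 0.02 in adult liver, each ± 0.12. Neither age passed the test at any time. All 3 young arrays at 30 min lay below the young sham arrays, where 14.8% of all genes did not overlap with sham, and no other group stood apart. At 90 min in young liver the kinases thus had log2 differences of 1.20 for Chka and 0.04 for Chkb, a contrast between genes that was not tested.

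The next step is taken by the cytidylyl-transferases, Pcyt1a for phosphocholine, where it limits the rate of the route, and Pcyt2 for phosphoethanolamine. Neither gene passed the test in any comparison. Pcyt1a had log2 differences of 0.05, -0.13 and 0.00 in young liver and -0.23, -0.43 and -0.32 in adult liver, each ± 0.21. Adult Pcyt1a ratios were 0.974, 0.826 and 1.2 in sham and 0.774, 0.617 and 0.818 after 60 min. Every adult array at 60 min lay below every adult sham array, but the adjusted p from limma was 0.146. Pcyt2 had log2 differences of -0.19, -0.01 and 0.02 in young liver and -0.22, -0.36 and -0.13 in adult liver, each ± 0.15. Its adult ratios at 60 min were 0.883, 0.84 and 0.639, against 1.03, 0.992 and 0.981 in sham, also without overlap and with an adjusted p of 0.103. In that comparison 37% of all genes did not overlap with sham.

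Chpt1, the cholinephosphotransferase that finishes phosphatidylcholine, fell in adult liver at 60 min and was the only one of the 6 tested genes to pass in any comparison. Adult sham ratios were 1.07, 0.895 and 1.04. They were 0.814, 0.73 and 0.84 after 30 min, 0.558, 0.727 and 0.698 after 60 min, and 0.798, 0.722 and 0.65 after 90 min. All 9 adult ischemia arrays lay below all 3 adult sham arrays. Of all genes, 11.5%, 37% and 39.1% did not overlap with adult sham at 30, 60 and 90 min. The log2 fold change at 60 min was -0.60 ± 0.16, with an adjusted p of 0.0319 from limma. The differences at 30 and 90 min were -0.33 ± 0.16 and -0.47 ± 0.16 and did not pass, with adjusted p of 0.485 and 0.0736.

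The Chpt1 call at 60 min was lost when any 1 of the adult 60 min arrays, or the first or the third adult sham array, was left out, and it was kept without the second sham array. It was also lost under quantile normalization, where the fold change was -0.37. Over the 13 alternatives the fold change ran from -0.68 to -0.37 and the adjusted p from 0.0146 to 0.498. Within arrays sharing the first part of the title code, the differences were -0.94, -0.30 and -0.57. In young liver Chpt1 differed from sham by -0.29, -0.32 and -0.25, each ± 0.16, with arrays overlapping sham at all 3 times and none past the threshold.

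Cept1 encodes a transferase that can finish both phosphatidylcholine and phosphatidylethanolamine. It did not pass in any comparison. In young liver its log2 differences were -0.05, 0.05 and 0.16, and in adult liver -0.22, -0.41 and -0.13, each ± 0.17. Adult ratios at 60 min were 0.842, 0.771 and 0.66, below sham at 0.986, 1.01 and 1, with an adjusted p of 0.0955. Such a lack of overlap held for 37% of all genes there.

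Pemt, the methyltransferase of the alternative route, did not pass either. Young sham ratios were 0.963, 1.03 and 1, and the 9 young ischemia arrays ran from 0.674 to 0.969. The 30 and 90 min arrays lay below all young sham arrays, and 1 array at 60 min overlapped them. Of all genes, 14.8% did not overlap with young sham at 30 min and 13.9% at 90 min. The young differences were -0.34, -0.32 and -0.39, each ± 0.14, with adjusted p of 0.493, 0.449 and 0.328. In adult liver the differences were -0.07, -0.34 and -0.43, each ± 0.14, with adjusted p of 0.846, 0.1 and 0.0609. Adult ratios at 90 min were 0.752, 0.781 and 0.688 against 0.919, 1.02 and 1.06 in sham, without overlap, as for 39.1% of all genes.

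**Figure D2:**
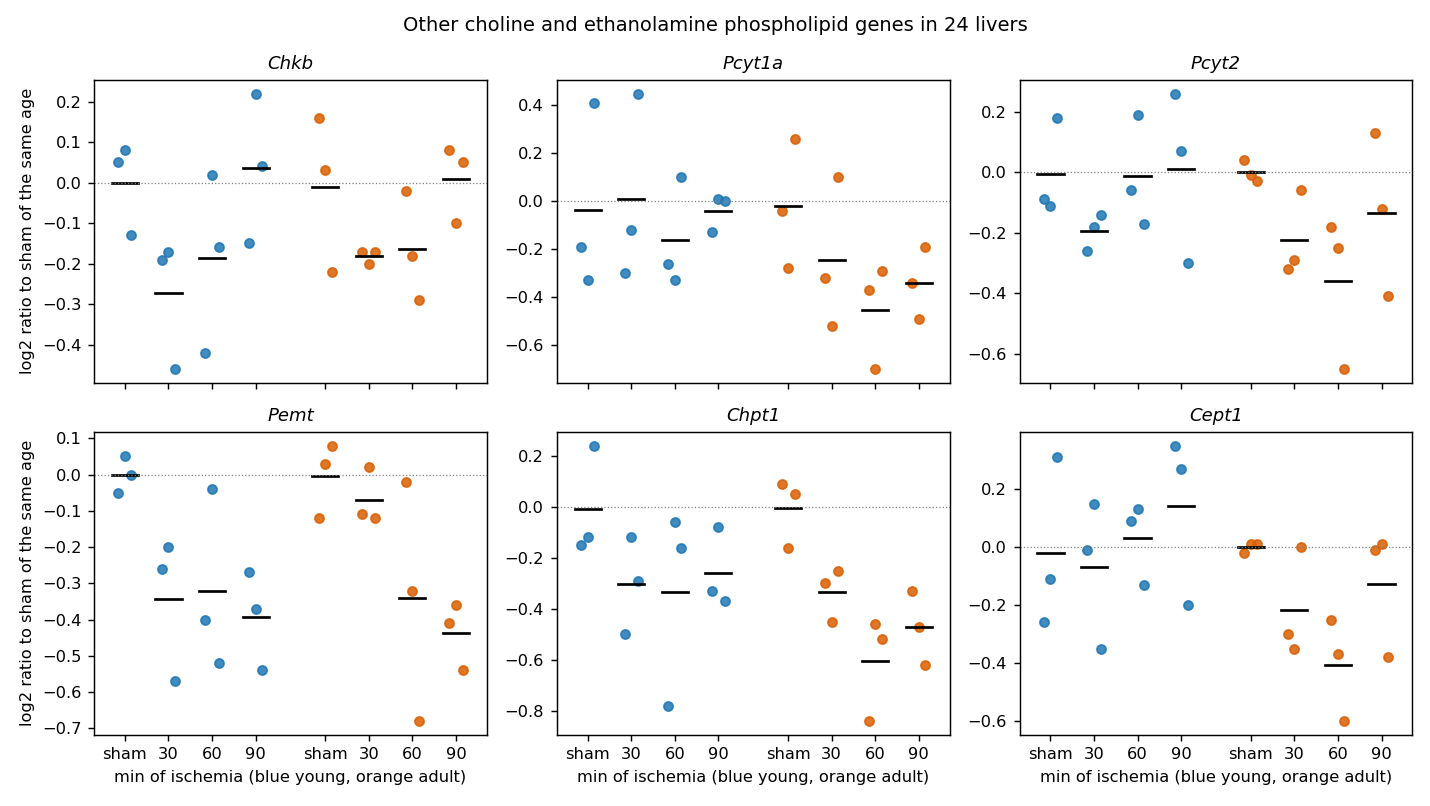
Log2 ratio to the sham mean of the same age for the 6 tested genes, by minutes of ischemia, with each point 1 array (n = 3 a group), bars at the mean, a dotted line at the sham mean and a separate axis range in each panel. The adult Chpt1 arrays after ischemia all lie at or below -0.25 and the adult sham arrays at or above -0.16, and Chkb stays near the dotted line.

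Enpp2, the autotaxin gene, was lower in young liver after ischemia and close to sham in adult liver. Young sham ratios were 0.963, 1.04 and 0.992. They were 0.627, 0.669 and 0.651 after 30 min, 0.793, 0.858 and 0.851 after 60 min, and 0.738, 0.786 and 0.689 after 90 min. The 4 young groups did not overlap at all, and their order from highest was sham, 60, 90 and 30 min. That is the same order as for the Gpcpd1 group means in young liver, but the Gpcpd1 ischemia groups overlapped one another. Both genes were selected on these arrays, so nothing is read from the shared order. The log2 differences from young sham were -0.62, -0.26 and -0.44, each ± 0.10.

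Adult Enpp2 ratios were 1.04, 0.984 and 0.973 in sham, 0.928, 0.787 and 1.16 after 30 min, 0.877, 0.924 and 0.94 after 60 min, and 0.942, 0.908 and 0.934 after 90 min. The 60 and 90 min arrays lay just below all sham arrays, and the 30 min arrays spread to both sides of them. The log2 differences were -0.08, -0.13 and -0.11, each ± 0.10. The 30 min value turned sign in 1 of 13 alternatives.

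Markers of some other liver cells also had values below sham in the same young livers, and those of others stayed near it. At 30, 60 and 90 min the median log2 difference was -0.02, -0.02 and -0.01 over 9 T and NK cell markers. It was 0.09, 0.10 and -0.02 over 6 neutrophil markers, and -0.07, -0.03 and -0.05 over 6 cholangiocyte markers. Over 10 measured markers of sinusoidal endothelial cells, the mean log2 ratio was -0.11 to 0.05 in the young sham arrays, -0.36 to -0.22 at 30 min, -0.39 to -0.38 at 60 min and -0.40 to -0.30 at 90 min. None of the 10 passed in limma at these times, with 2, 4 and 4 at an unadjusted p under 0.05. Over 10 markers of hepatic stellate cells the median log2 difference was -0.14, -0.56 and -0.71, with 8, 10 and 10 of them below 0. At 90 min 4 of them passed and were lower. Over 12 measured Kupffer cell markers the median was -0.02, -0.40 and -0.33, with 7, 12 and 10 of them below 0, and none passed in limma (1, 5 and 3 at an unadjusted p under 0.05). The part of these cells in the Enpp2 and Gpcpd1 values was not tested.

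In each comparison, the 9 genes can be counted beside all 14351. In young liver at 30 min, Gpcpd1 and Enpp2 were past the threshold and lower, and none was higher, where 1200 of the 14351 genes were at an unadjusted p under 0.05, 0.0488% of all genes were called lower and 0.00697% higher. Both were selected on these arrays, so nothing is read from that count. Without young sham array 2, or without young 30 min array 1 or 3, the count was 1. In those fits 6, 4 and 5 of all genes passed, against 8 with all arrays. The arrays of 6 of the 9 genes did not overlap with sham, among them 3 of the 6 tested genes, against 14.8% of all genes.

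At 60 min in young liver none of the 9 genes passed in limma, 4 were at an unadjusted p under 0.05 (1498 of all genes), and 0.0139% of all genes were called in each direction. Arrays did not overlap for 3 of the 9, all of them selected genes, against 13.3% of all genes. At 90 min the selected genes Chka, higher, and Gpcpd1, lower, were past the threshold, and again nothing is read from that count. Among all genes 0.0697% were called higher and 0.111% lower. That count was 0 without young sham array 1 or 2 or without young 90 min array 1 or 2, and 1 without young sham array 3. In those fits 2, 2, 2, 3 and 11 of all genes passed, in that order, against 26 with all arrays. Arrays did not overlap for 4 of the 9 genes, 1 of them among the 6 tested, against 13.9% of all genes. The 6 tested genes had 0 calls in young liver in limma, with 2, 1 and 1 at an unadjusted p under 0.05, beside 1200, 1498 and 1292 of all genes.

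In adult liver at 30 min none of the 9 genes passed in limma, 1 was at an unadjusted p under 0.05 (1486 of all genes), and 0% of all genes were called higher or lower. Arrays did not overlap for 3 of the 9 genes, 2 of them tested, against 11.5% of all genes. At 60 min the tested gene Chpt1 passed and was lower, and the selected gene Chka was also past the threshold and lower, from which nothing is read. All 9 genes had a log2 difference below 0, with a median of -0.36 against -0.05 over all genes. Among all genes 9.78% were called lower and 2.15% higher. Of the 6 tested genes 1 fell, and 5 were at an unadjusted p under 0.05, as were 4773 of the 14351 genes. Arrays did not overlap for 6 of the 9 genes, 4 of them tested, against 37.0% of all genes.

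The adult 60 min count of 2 fell to 1 without adult sham array 2 or adult 60 min array 1, and to 0 without adult sham array 1 or 3 or adult 60 min array 2 or 3. At 90 min none of the 9 genes passed in limma, and 3 were at an unadjusted p under 0.05, beside 4102 of all genes. The background was 6.28% of genes called lower and 1.17% called higher. Arrays did not overlap for 4 of the 9 genes, 2 of them tested, against 39.1% of all genes. Setting each array's median to 0 changed the all-gene split at 60 min from 309 higher and 1403 lower to 477 and 848, and at 90 min from 168 and 901 to 253 and 704. Under quantile normalization 0 genes passed at 60 min and 3 at 90 min, all 3 lower. With all arrays 1712 of all genes passed at 60 min and 1069 at 90 min. With 1 array left out, the all-gene count at 60 min was 14, 588 and 4 without adult sham array 1, 2 and 3. It was 2177, 23 and 1 without 60 min array 1, 2 and 3. At 90 min it was lowest, at 7, without adult sham array 3, and 312 and 806 without adult sham array 1 and 2. Without 90 min arrays 1, 2 and 3 it was 17, 91 and 266. The background shares in adult liver thus also depended on which single array was left out.

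Hepatocyte markers had values below sham at both ages. In young liver 8, 9 and 8 of 9 measured markers lay below 0 at 30, 60 and 90 min, with medians of -0.13, -0.09 and -0.07. All 9 lay below 0 in adult liver at 30 min, with a median of -0.12. Of 12 such markers 9 were measured, and their mean log2 ratio ran from -0.06 to 0.03 in adult sham arrays, -0.62 to -0.13 at 60 min and -0.48 to -0.17 at 90 min. At 60 min all 9 lay below 0 with a median of -0.31, 0 passed in limma, and 9 were at an unadjusted p under 0.05. Over all 14351 genes the median there was -0.05, and 4773 were at such a p in limma. The median of Kupffer cell markers in adult liver was -0.51, -0.54 and -1.23 at 30, 60 and 90 min. All 12 measured markers lay below 0 at each time, and 0, 1 and 11 of them passed. Adult medians were -0.01, -0.07 and -0.21 for stellate cells and -0.18, -0.22 and -0.31 for sinusoidal endothelial cells. At 90 min 2 and 1 of their 10 markers passed and were lower, and none passed earlier. Neutrophil and cholangiocyte medians in adult liver ran from -0.07 to 0.06. Medians of T and NK cell markers in adult liver lay above sham, at 0.19, 0.17 and 0.16 at 30, 60 and 90 min, and none of these markers passed. The part of these shifts in the adult values of Chpt1, Chka and Pemt was not tested.

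The responses of the ages were set against each other as the adult minus the young log2 difference from sham. For the 3 selected genes the value is a description. For Chka it was -0.55, -1.29 and -1.08 at 30, 60 and 90 min, each ± 0.28. For Gpcpd1 it was 1.32, 1.07 and 0.75, each ± 0.39. For Enpp2 it was 0.55, 0.13 and 0.33, each ± 0.14. At 60 min all 3 young Chka arrays lay above their sham mean and all 3 adult ones below theirs.

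None of the 6 tested genes passed an age difference in limma, and none was at an unadjusted p under 0.05. Their largest values were -0.46 ± 0.23 for Cept1 and -0.35 ± 0.21 for Pcyt2, both at 60 min. Among all 14351 genes, the 3 selected genes included, 0% were called higher or lower in limma at each of the 3 times, with 302, 978 and 1612 genes at an unadjusted p under 0.05. With arrays weighted by their own spread, 1383 of the 14351 genes passed at 90 min, and 1 of the 9, the selected gene Chka, was among them.

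**Figure D3:**
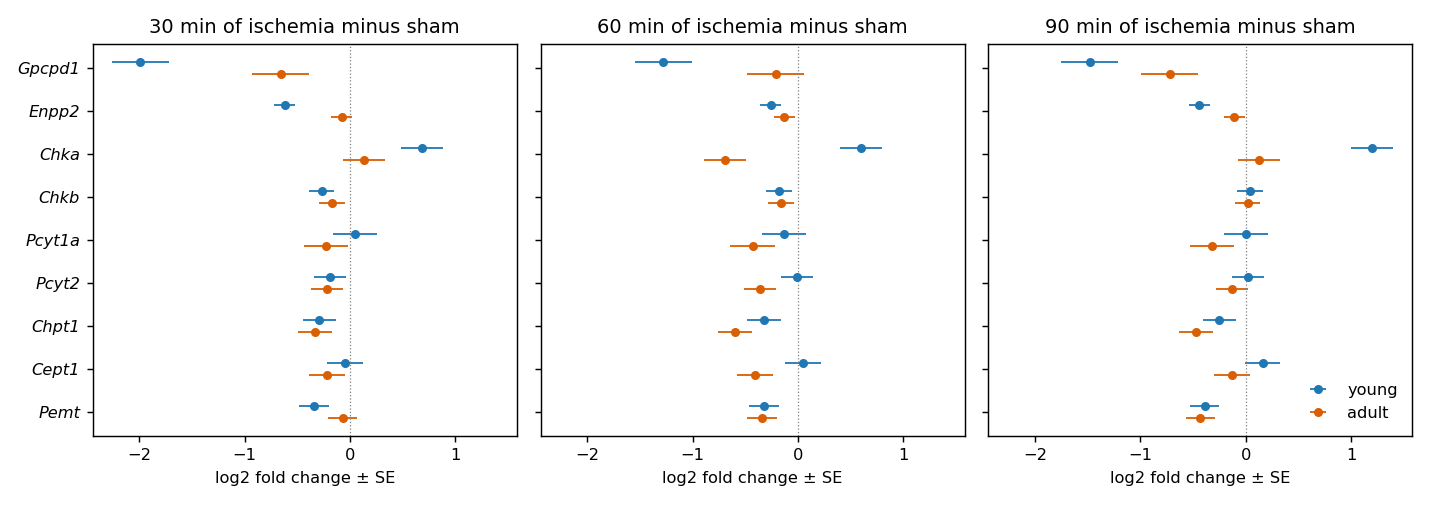
Log2 difference from sham of the same age for the 9 measured genes at 30, 60 and 90 min, with young and adult liver side by side and bars of 1 standard error from limma. Gpcpd1 lies at -1.99 in young and -0.66 in adult liver at 30 min, and Chka at 0.60 and -0.69 at 60 min, while the remaining genes lie within 0.62 of sham.

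The other genes of choline and phospholipid metabolism were read from 8 lists of 86 genes, of which 77 were measured. These lists too were drawn up with earlier results of these data known, so their counts are a description. In young liver at 30, 60 and 90 min none passed in limma, with 12, 10 and 7 at an unadjusted p under 0.05 and medians of -0.08, -0.08 and -0.05. In adult liver at 30 min none passed, 6 were at an unadjusted p under 0.05 and the median was -0.08. At 60 min 52 of the 77 lay below 0. Of the 77, 12 passed and were lower and 1 passed and was higher, against the 9.78% and 2.15% of all genes given above. Their median was -0.15, beside -0.05 over all genes. At 90 min 49 of the 77 lay below 0. Of the 77, 6 passed and were lower and 1 passed and was higher, against 6.28% and 1.17% of all genes. The median was -0.06 beside -0.04. Since the all-gene medians were below 0 too, more genes of the array lay below sham than above it. The counts below 0 are to be read beside that.

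At 60 min the falls lay in 7 of the 8 lists. Pctp, a phosphatidylcholine transfer protein, fell by 0.44 ± 0.14 (adjusted p = 0.0455). In choline oxidation, Bhmt and Bhmt2, which encode methyltransferases that remethylate homocysteine, fell by 0.42 ± 0.13 and 0.69 ± 0.20. All 8 measured genes of that list lay below 0, with a median of -0.35, and 2 passed. Among the remaining genes of the CDP routes, 2 of 7 fell, namely Selenoi, an ethanolaminephosphotransferase, by 0.80 ± 0.24 and Ptdss1, which makes phosphatidylserine from phosphatidylcholine, by 0.47 ± 0.12.

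The remaining falls were in genes that cut, reacylate or otherwise rework phospholipids. Lypla1, a lysophospholipase, fell by 0.62 ± 0.18 and Pnpla8, a phospholipase of mitochondria and peroxisomes, by 0.55 ± 0.16, being 2 of 17 measured genes. Lpcat3, an acyltransferase of lysophosphatidylcholine, was the 1 of 7 acyltransferase genes to fall, by 0.48 ± 0.15. Lpin3, a phosphatidate phosphatase, fell by 0.31 ± 0.09, the 1 of 12 genes of phosphatidic acid and diacylglycerol to do so. Of 7 sphingomyelin genes, the sphingomyelin synthase gene Sgms1 fell by 0.69 ± 0.16 and the acid sphingomyelinase gene Smpd1 by 0.34 ± 0.11. The Sgms1 arrays at 60 min overlapped sham, unlike those of the other listed genes that passed there. Of all genes 37% did not overlap. Plpp2, a lipid phosphatase that acts on lysophosphatidic acid, rose by 0.42 ± 0.11, the 1 of 10 genes of lysophosphatidic acid to pass.

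At 90 min Sgms1 and Plpp2 passed again. Sgms1 fell by 0.76 ± 0.16, and Plpp2 rose by 0.41 ± 0.11. Pla2g4a, the cytosolic phospholipase, fell by 0.68 ± 0.20, and Pla2g15, a lysosomal phospholipase, by 0.47 ± 0.12. Pla1a, a secreted phospholipase, fell by 0.53 ± 0.15 and Smpd2, a neutral sphingomyelinase, by 0.44 ± 0.13. The 2 times share the same 3 sham arrays, so they are not separate evidence for these genes.

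These adult counts depended on which single array was left out, as did the all-gene counts given above. The 60 min count of 13 was 0 without adult sham array 1 or 3 or without adult 60 min array 2 or 3. Over all genes 14, 4, 23 and 1 passed in those fits, against 1712 with all arrays. The list count was 4 without adult sham array 2 and 15 without adult 60 min array 1. The 90 min count of 7 was 0 without adult sham array 3 or adult 90 min array 1 or 2, 2 without adult sham array 1 and 3 without adult 90 min array 3. Under quantile normalization both counts were 0.

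**Figure D4:**
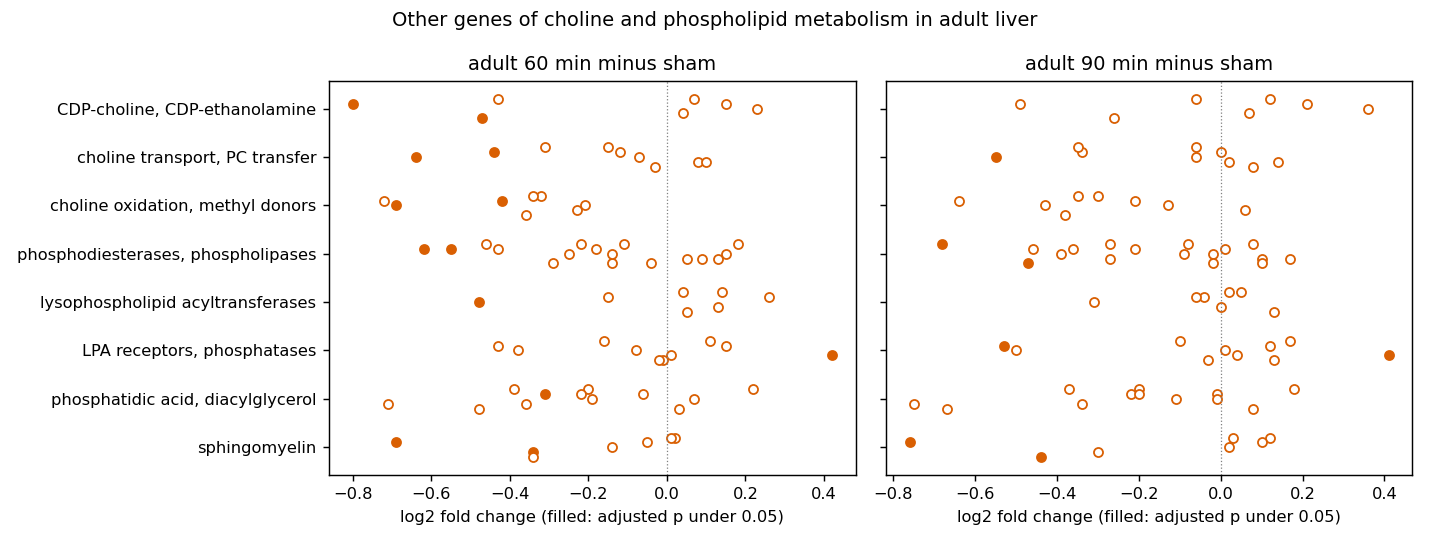
Log2 difference from sham in adult liver at 60 and 90 min for the measured genes of the 8 choline and phospholipid lists, 1 point a gene, with filled points for genes that passed (PC is phosphatidylcholine, LPA lysophosphatidic acid). At 60 min 12 listed genes passed and were lower, Selenoi furthest at -0.80, and Plpp2 passed and was higher by 0.42.

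The genes whose log2 ratios were most like those of Gpcpd1 over the 24 arrays were Rcl1, a ribosomal RNA processing gene (Pearson r = 0.89), the autophagy gene Atg14 (0.86) and the ubiquitin ligase gene Mylip (0.85). Over the 18 ischemia arrays alone they were the coactivator gene Ppargc1b (0.87), Lims2 (0.85) and Rcl1 (0.85). Rcl1 differed from sham by -0.71, -0.59 and -0.65 in young liver and by -0.37, -0.29 and -0.45 in adult liver, each ± 0.17. Its differences were below 0 in all 6 groups and smaller in size than those of Gpcpd1 in young liver.

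For Chka the genes most like it over 24 arrays were Lonrf3 (r = 0.90), the nuclear receptor coactivator gene Pnrc1 (0.89) and the ubiquitin ligase gene Trim2 (0.88). Over the 18 ischemia arrays they were the actin-binding protein gene Lasp1 (0.93), the kinase gene Dapk1 (0.93) and Lonrf3 (0.92). Pnrc1 differed from sham by 0.83, 0.68 and 1.09 in young liver and by 0.20, -0.67 and -0.19 in adult liver, each ± 0.33. These r are a description. They were picked as the highest among all genes, and the arrays share their sham scaling and their groups.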

How the data were processed

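Liver RNA of 24 mice was measured on Affymetrix arrays, 3 in each of 8 groups named by the sample labels. Per the submitters' processing notes, RMA was used; its version is not given in the sources used here. What was deposited are linear ratios. The authors had scaled each age to its own sham arrays: the mean of the 3 sham ratios is 1 within 2e-07 for every probe set. Array medians ran from 0.955 to 1.02. Filters on dim probe sets need brightness and were not used.

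Symbols were looked up by RefSeq accession, and 15228 of 26180 probe sets had 1 symbol. Of the 661 genes with several probe sets, 1 was taken by type and then number of its accession, which left 14351 genes. The log2 ratios were fitted with 8 group means in limma 3.58.1 (R 4.3.3), with 16 residual and 4.53 prior degrees of freedom. Tests were two-sided, with Benjamini-Hochberg adjustment over all genes within each of 9 comparisons, and a threshold of 0.05. The steps were tested on simulated data. Only 3 mice per group limit the precision. Each p-value sets a mean difference against a spread between mice pooled over all 8 groups and drawn towards that of other genes.

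The members and lists were chosen with earlier results of these data known. Named genes are all members, up to 3 passing genes per list with the smallest adjusted p, and the 3 genes most like Gpcpd1 and Chka by Pearson's r. Of the genes this rule names, 1 is counted but not reported by name here. Alternatives were every probe set, the mean of probe sets, quantile normalization, median centring, a block for the first title code, weights per array, arrays of that age only, and each array left out.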

Additional observations from a re-analysis of the deposited data

Results flagged for a closer look

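The Chka response at 60 min ran in opposite directions at the 2 ages. All 3 young arrays lay above the young sham mean, at ratios of 1.49, 1.48 and 1.42, and all 3 adult arrays lay below the adult sham mean, at 0.553, 0.578 and 0.728. The adult minus young difference was -1.29 ± 0.28 on the log2 scale. Chka was selected on these arrays, so the difference is a description and no p-value is given for it. None of the 14351 genes, Chka included, passed an age difference at 60 min in limma, with 978 at an unadjusted p under 0.05. Over 18 alternatives the Chka difference ran from -1.61 to -1.03.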

How the results depend on the processing

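Counts below are of the 9 measured genes and of the 77 other choline and phospholipid genes that passed in limma. No passing direction among the 9 genes was turned by an alternative, and none among the listed genes by the 6 alternatives that keep all arrays, for which it was checked. With a block for the first title code, the 9-gene count was 1 in young liver at 30 min and 1 at 90 min (2 each without it). The list count in adult liver at 90 min was 12 in place of 7. Over all genes these comparisons had 6, 4 and 1467 calls with the block, against 8, 26 and 1069 without it. Under quantile normalization the 9-gene count was 1 in young liver at 90 min and 0 in adult liver at 60 min. The list counts in adult liver at 60 and 90 min were 0 and 0. Over all genes 21 passed with it in young liver at 90 min, and 0 and 3 in adult liver at 60 and 90 min. The adult 60 min differences under quantile normalization were -0.24 for Pcyt1a, -0.18 for Pcyt2, -0.14 for Pemt and -0.22 for Cept1. With arrays centred on their median the list count in adult liver at 60 min was 8, where 1325 of all genes passed. With array weights, which ran from 0.256 to 4.79, the 9-gene count was 2 in adult liver at 30 min, 3 at 90 min and, in the age comparison at 90 min, 1, while 2340, 3017 and 1383 of the 14351 genes passed there. The list counts with weights were 5, 1 and 2 in young liver, where 307, 31 and 872 of all genes passed. They were 14 and 16 in adult liver at 30 and 90 min, and 3 in the age comparison at 90 min. With arrays of that age only the list count was 1 at each young time, where 46, 16 and 66 of all genes passed. In adult liver at 60 and 90 min it was 5 and 0, where 587 and 47 of all genes passed. Leaving out 1 array, the 9-gene count ran from 1 to 2 in young liver at 30 min, 0 to 2 at 90 min, and 0 to 1 in adult liver at 60 min. The list count ran from 0 to 1 in young liver at 60 min and in adult liver at 30 min, from 0 to 15 in adult liver at 60 min and from 0 to 5 at 90 min. The cause was not tested. The labels give no replicate number, and the first title code was the only pairing of arrays that could be fitted. With 3 arrays a group and no brightness, dim probe sets could not be told from bright ones.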

Other observations

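Lpin1 and Lpin2 encode phosphatidate phosphatases that make the diacylglycerol used by Chpt1 and Cept1. They were chosen after their values were seen, and neither passed in limma. Lpin1 had log2 differences from sham of -2.21, -1.19 and -1.01 in young liver, each ± 0.57, with adjusted p of 0.156, 0.478 and 0.656, and of -0.97, -0.48 and -0.67 in adult liver. Lpin2 had differences of -1.08, -0.97 and -0.54 in young liver, each ± 0.25, with adjusted p of 0.108, 0.171 and 0.522, and of -0.47, -0.39 and -0.37 in adult liver.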
